A study of Mus musculus with 2 samples.

Results

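Wnt signalling steers the progenitor cells from which the nephrons of the fetal kidney arise, and 41 protein-coding genes for its receptors, secreted inhibitors and beta-catenin machinery were examined here for islands of the histone deacetylases Hdac1 and Hdac2. The genes were taken by name, and all 41 were found among the 21883 protein-coding genes that RefSeq places on the autosomes and sex chromosomes (GRCm38.p6, the assembly also called mm10). They fall into 7 roles: 12 receptors and co-receptors, 8 secreted inhibitors, 1 ligand export factor, 3 Dishevelled proteins, 6 destruction complex genes, 5 genes for beta-catenin and its nuclear partners, and 6 feedback genes. Nephron progenitor cells were isolated from kidneys of wild-type mouse embryos at E16.5 and cultured, and no treatment is named.

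There was 1 chromatin immunoprecipitation library with an antibody against Hdac1 (0.5 µg in the file label, 30182 islands) and 1 with an antibody against Hdac2 (1 µg, 20307 islands), each from 3750000 cells. An island is a stretch that the authors' caller marked as enriched in reads. Each island has the authors' p- or q-value, given in brackets after its position; it was used to rank islands within a list (top 1% meaning the lowest 1% of values) and not to compare lists. Where a pair of widths is given for a gene, the first is Hdac1 and the second Hdac2. With 1 library per antibody there is no replicate check and no test was made. Read depth is unknown, and binding in few of the cells and weak binding in all cannot be told apart. All 8 nephron progenitor genes looked at as a check of the label (Six2, Cited1, Sall1, Wt1, Pax2, Osr1, Eya1 and Gdnf) had an Hdac1 island at a gene end, against 60.7% of all protein-coding genes. An Hdac2 island was there at 7 of them, Pax2 being the exception, against 31.7% of all genes. Islands are common at gene ends, are not transcript levels and do not show which cells were present.

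In the canonical pathway a Wnt ligand binds a Frizzled receptor together with the co-receptor Lrp5 or Lrp6. Without ligand, a destruction complex built on Axin and Apc lets the kinases Gsk3 and casein kinase 1 mark beta-catenin for degradation; with ligand, Dishevelled halts the complex, and beta-catenin enters the nucleus and joins Tcf and Lef factors with Bcl9 and Pygo proteins. In the kidney, Wnt9b from the ureteric bud and Wnt4 in the progenitors themselves govern renewal and the change to epithelium, and class I deacetylases are part of the corepressor complexes that Tle proteins bring to Tcf sites.

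Nearly every gene of the set had an Hdac1 island at a gene end, meaning within 1 kb of its first or last base, and most also had Hdac2. Hdac1 was at an end of 40 of 41 genes (97.6%), against 60.7% of all protein-coding genes, and Axin1 was the exception. Hdac2 was at an end of 27 genes (65.9%), against 31.7% of all genes. All 27 also had Hdac1 (65.9% with both, against 30.7% of all genes), 13 had Hdac1 alone and none had Hdac2 alone. Among genes with an Hdac1 island at an end, 67.5% of the set had Hdac2 there, compared with 50.6% of all such genes.

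By role, Hdac2 lay at an end of all 5 genes for beta-catenin and its nuclear partners and of 10 of 12 receptors and co-receptors, against the 31.7% of all genes. It lay at 5 of 8 secreted inhibitors and 3 of 6 feedback genes. At 2 of 6 destruction complex genes and 1 of 3 Dishevelled genes (33.3% of each) its share was close to that of all genes. These roles hold few genes each, and their differences were not tested.

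**Figure D1:**
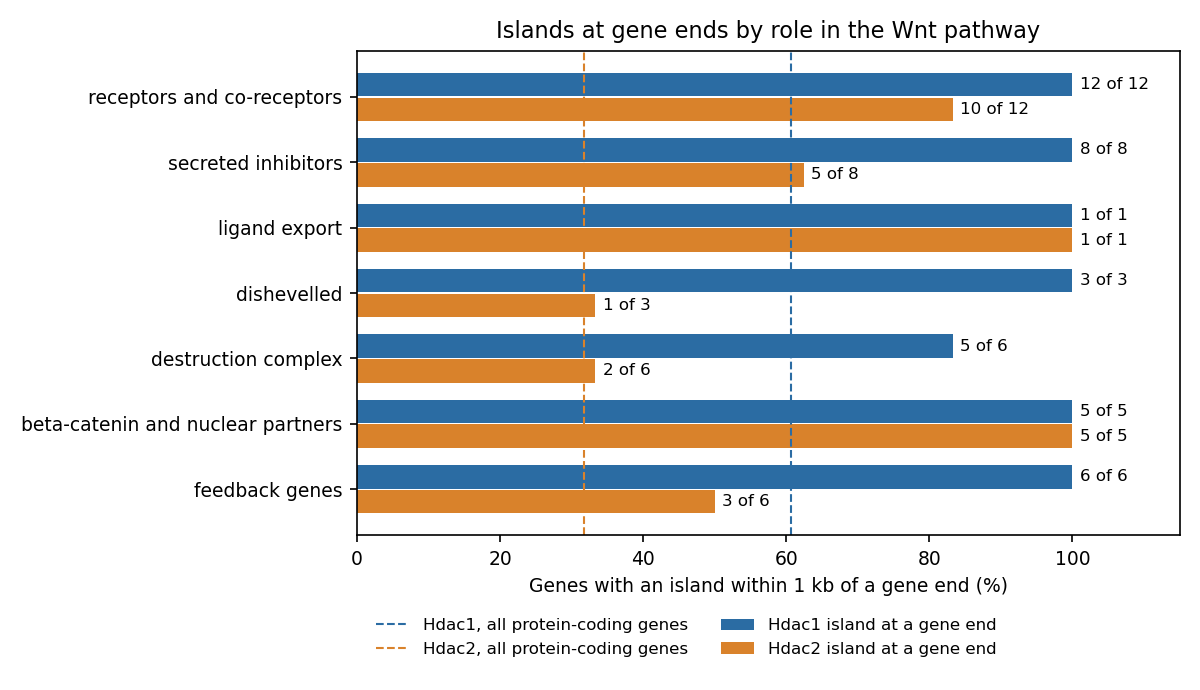
Share of genes with an island within 1 kb of a gene end (x axis, %), for each role in the Wnt pathway (y axis), with the number of genes beside each bar. Blue bars are Hdac1 and orange bars Hdac2, and the dashed lines give all protein-coding genes, 60.7% and 31.7%. Hdac1 bars are high in every role, while Hdac2 ranges from 1 of 3 Dishevelled genes to 5 of 5 beta-catenin genes.

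At CpG-rich promoters Hdac1 was frequent throughout the genome, and most genes of the set have such promoters. A listed transcription start, with 250 bases before and 50 after it, was found for 28 of the 41 genes, and 20 of the 28 (71.4%) had a CpG-rich promoter, here a GC content of at least 55% and an observed to expected CpG ratio of at least 0.6, against 44.1% of all genes with a listed start. Hdac1 lay within 1 kb of a listed start at 26 of the 28 genes, against 61.4% of all genes, and Hdac2 at 18, against 31.7%. A gene was classed as CpG-rich if any of its listed promoters was, and an island at any of its listed starts was counted. On that count Hdac1 lay within 1 kb of a listed start at all 20 CpG-rich genes, beside 97.3% of all CpG-rich genes. So at these 20 genes Hdac1 was about as frequent as at CpG-rich genes in general. Hdac2 lay there at 15 of the 20, against 55.8% of all CpG-rich genes. The 5 without it were Dvl1, Dvl2, Dvl3, Apc2 and Sfrp5. At Apc2 the Hdac1 island lay at a start whose promoter was not CpG-rich (ratio 0.56). The promoter that put Apc2 in the CpG-rich class (ratio 0.64) lay under no island of either antibody.

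At the 8 genes whose listed promoters were not CpG-rich, both antibodies were more frequent than in that class as a whole. Hdac1 was at the start of 6 of them, against 33.0% of all such genes, with Nkd1 and Rnf43 as the exceptions. Hdac2 was at 3 (37.5%), Sp5, Fzd1 and Dkk2, against 12.8%. With 8 genes chosen by name, this difference was not tested. Fzd1 and Gsk3a missed the CpG-rich class only by their GC content (54.0% and 54.3%), with ratios of 0.75 and 0.64. The first listed start of Rnf43 also failed only on GC content (46.7%, ratio 0.63).

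The following promoters from RefSeq (GRCm38.p6) are examples chosen after their values were seen. They show CpG-rich sequences at Axin2 and Fzd7 and a sequence outside that class at Rnf43. Each is 300 bases on the plus strand with every CG in capitals. Axin2 and Fzd7 lie under strong islands of both antibodies, and Rnf43, shown for the first of its 2 listed starts, under neither.
Axin2, chr11:108920099-108920398: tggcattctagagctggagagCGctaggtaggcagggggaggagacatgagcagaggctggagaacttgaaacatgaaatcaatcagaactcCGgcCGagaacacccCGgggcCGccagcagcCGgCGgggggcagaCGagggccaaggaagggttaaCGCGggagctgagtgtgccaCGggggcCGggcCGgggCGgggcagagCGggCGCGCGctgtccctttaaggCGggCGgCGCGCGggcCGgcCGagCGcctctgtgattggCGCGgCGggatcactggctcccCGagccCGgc
Fzd7, chr1:59481897-59482196: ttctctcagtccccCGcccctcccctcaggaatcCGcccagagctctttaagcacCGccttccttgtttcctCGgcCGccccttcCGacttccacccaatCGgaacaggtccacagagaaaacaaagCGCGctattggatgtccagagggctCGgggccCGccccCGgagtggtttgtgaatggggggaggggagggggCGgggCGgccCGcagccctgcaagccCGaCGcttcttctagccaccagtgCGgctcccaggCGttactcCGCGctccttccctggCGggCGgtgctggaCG
Rnf43, chr11:87662837-87663136: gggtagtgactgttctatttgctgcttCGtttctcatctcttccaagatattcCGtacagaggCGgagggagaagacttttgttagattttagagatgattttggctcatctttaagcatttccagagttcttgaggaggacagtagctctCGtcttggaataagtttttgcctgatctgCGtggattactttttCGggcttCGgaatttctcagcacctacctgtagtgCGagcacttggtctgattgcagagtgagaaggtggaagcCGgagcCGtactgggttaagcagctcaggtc
The Axin2 promoter holds 31 CG pairs, that of Fzd7 24 and that of Rnf43 10. Other genes of the set did not follow these examples: the promoters of Sp5 and Dkk2, with 6 and 11 CG pairs, lay under islands of both antibodies. Those of Dvl1 and Dvl3, with 35 and 30, lay under Hdac1 alone.

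Sp5, a zinc finger gene switched on by Wnt signalling, was the only one of the set whose listed promoter held the letters CTTTGAT or their reverse complement ATCAAAG, a form of the Tcf and Lef motif. The match is in capitals and lies 104 bases before the start.
Sp5, chr2:70474673-70474972: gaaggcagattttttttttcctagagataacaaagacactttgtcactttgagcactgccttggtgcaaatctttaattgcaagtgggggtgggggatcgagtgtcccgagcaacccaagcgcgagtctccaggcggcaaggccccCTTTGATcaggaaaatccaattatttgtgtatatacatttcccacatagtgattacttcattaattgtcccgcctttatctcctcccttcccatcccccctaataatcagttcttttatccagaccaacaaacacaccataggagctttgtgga
That is 1 of 35 promoters of the set (2.86%), close to the 3.22% of 21262 promoters of all protein-coding genes. Over the genome the letters were rarer in promoters under an Hdac1 island (2.28%) than in those not under one (4.57%), and the former were also richer in GC, with a median of 62.3% against 47.7%.

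The Frizzled receptors, which bind Wnt ligands at the cell surface, carried some of the broadest islands of the set. All 10 had Hdac1 at an end and 9 had Hdac2, Fzd6 lacking it. At Fzd2 the Hdac1 island of 9.6 kb (chr11:102602601-102612200, 1.25e-284) ranked in the top 0.374% of its list, and the Hdac2 island of 7.8 kb (chr11:102601401-102609200, 1.27e-16) in the top 7.66%. At Fzd7 the Hdac1 island of 9.4 kb (chr1:59480201-59489600, 1.25e-207) covered the gene entirely, while the Hdac2 island of 5.2 kb (chr1:59480401-59485600, 1.08e-26) ended before the last base of the gene. At Fzd1 both islands were 5.4 kb wide, at chr5:4753601-4759000 for Hdac1 (9.88e-189) and chr5:4753801-4759200 for Hdac2 (1.87e-11). These 3 are short genes, of 3.63 to 4.81 kb, and each lay whole within a single Hdac1 island. That was so of 1.78% of all protein-coding genes and of 4.87% of those up to 10 kb long, against 3 of the 15 genes of the set up to that length. For Hdac2 the genes lying whole within an island were Fzd1, Fzd2 and Sp5, beside 1.02% of all genes and 2.74% of the short ones.

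At the other Frizzled genes no island of either antibody covered the whole gene. Fzd4 had an Hdac1 island of 6.2 kb (chr7:89401401-89407600, 1.82e-132) and an Hdac2 island of 3.4 kb inside its outline (chr7:89403401-89406800, 2.93e-16), both also at an end of Tmem135, so they cannot be given to Fzd4 alone. Fzd5 had 4.6 kb (chr1:64734801-64739400, 3.33e-103) and 4.0 kb (chr1:64735001-64739000, 6.84e-21). Each was ranked within its own list, the Hdac1 island in the top 6.59% and the Hdac2 island in the top 3.88%. Fzd10 had 3.8 kb for Hdac1 (chr5:128599001-128602800, top 30.7%) and 2.4 kb for Hdac2 (chr5:128599201-128601600, top 14.8%). Fzd8 had 4.0 kb (chr18:9210801-9214800, 2.86e-83) and 2.8 kb (chr18:9212001-9214800, 4.66e-13), with the same last base.

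Fzd3, a receptor also used in planar polarity, had 4.0 kb (chr14:65260401-65264400, 1.69e-69) and 2.6 kb (chr14:65261001-65263600, 2.23e-06). With islands within 1 kb merged these became 7.0 kb and 6.2 kb. Fzd9 had 2.4 kb (chr5:135250201-135252600, 4.43e-30) and 2.2 kb (chr5:135249601-135251800, 4.24e-05), the Hdac2 island standing in the weaker part of its list at top 87.2%. Fzd6 was the weakest of the receptors, with an Hdac1 island of 1.2 kb (chr15:39006001-39007200, 7.92e-09, top 76.0%). The nearest Hdac2 island to Fzd6 lay 66.7 kb away.

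The co-receptors differed. Lrp6 had an Hdac1 island of 4.6 kb at its end (chr6:134564001-134568600, 2.09e-111) and an Hdac2 island of 4.0 kb (chr6:134564201-134568200, 8.32e-10) whose outline lay within it. Further Hdac1 islands inside Lrp6 were weaker, at top 55.6% to top 96.6%, and 1 of these (chr6:134526201-134528600) overlapped an Hdac2 island of 1.6 kb (1.01e-10). Lrp5 had Hdac1 at its end, 4.4 kb wide (chr19:3683001-3687400, 2.12e-49), and its nearest Hdac2 island was 20.8 kb outside the gene.

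**Figure D2:**
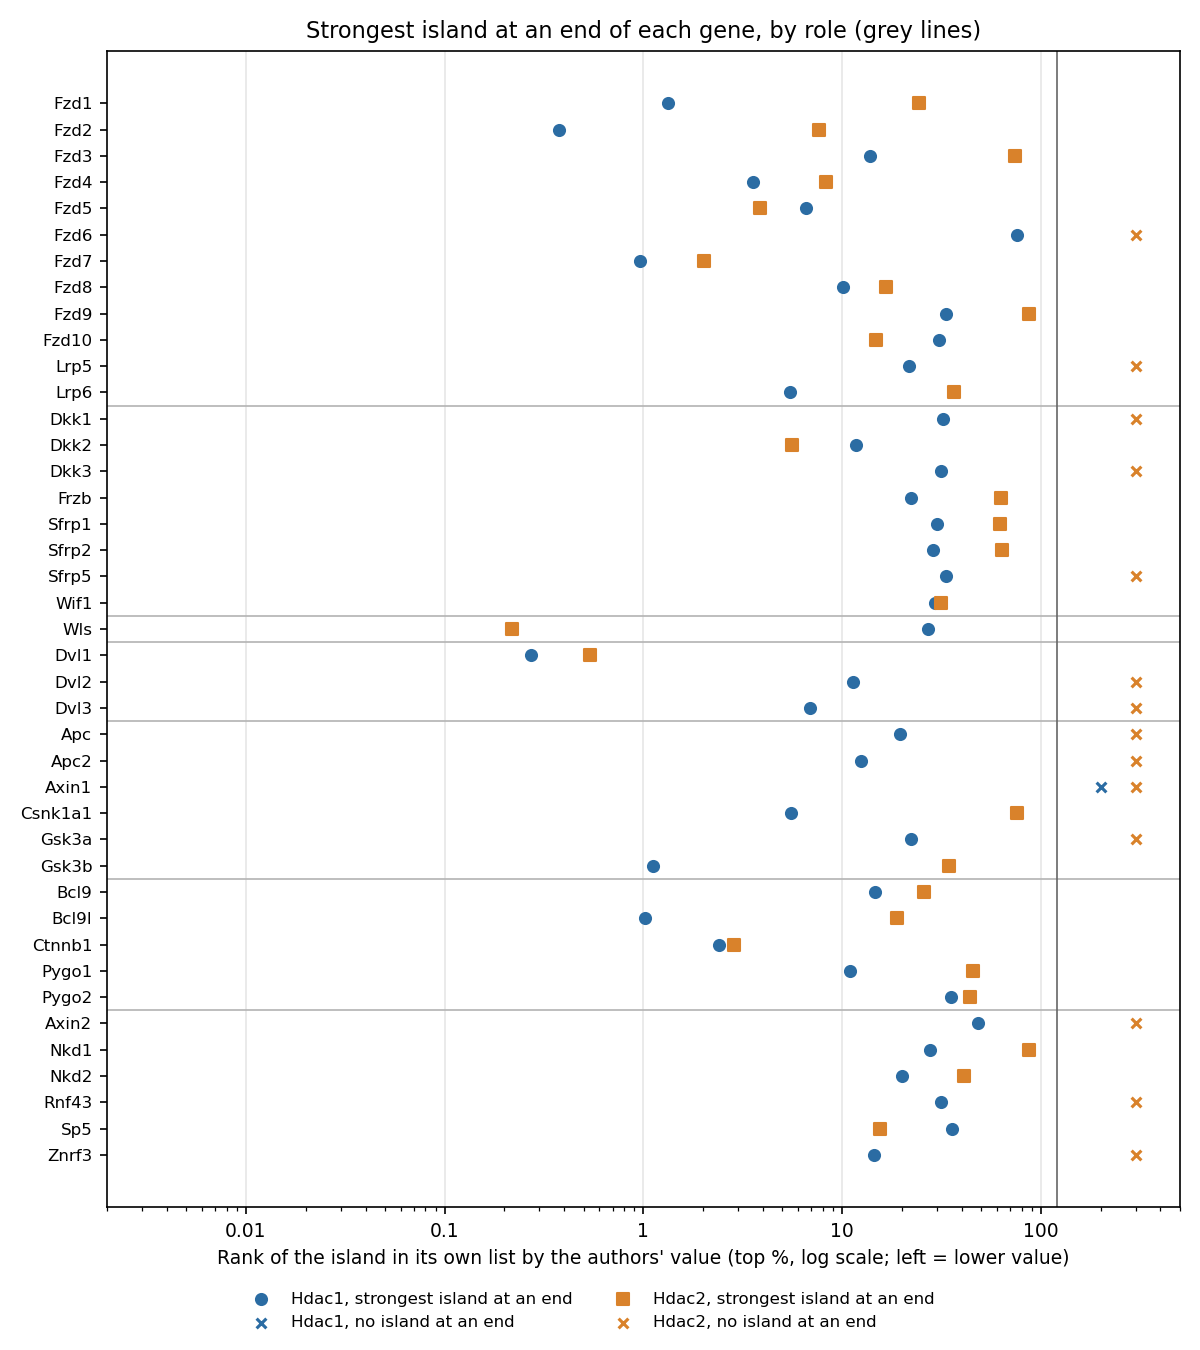
Rank of the strongest island at an end of each gene within its own list by the authors' value (x axis, top %, log scale, lower values to the left), with genes grouped by role (y axis, grey lines between roles, in the order of the plot of shares by role). Blue circles are Hdac1, orange squares Hdac2, and crosses at the right mark genes with no island at an end. Fzd2, Fzd7, Bcl9l, Gsk3b and Fzd1 have Hdac1 in the top 0.374 to 1.33%, whereas no secreted inhibitor has Hdac1 in the top 10%. The points farthest to the left in Hdac1 and Hdac2 are the narrow islands at the 3′ ends of Dvl1, which is tied with the 82 islands listed at 0, and Wls.

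Secreted inhibitors, which bind Wnt ligands or their co-receptors outside the cell, all had Hdac1, but narrower and weaker than at the receptors. The median width was 2.7 kb against 4.5 kb at the receptors and 2.4 kb over all genes with such an island. None of the 8 was in the top 10% of the Hdac1 list, compared with 6 of the 12 receptors and 25.6% of all genes with an Hdac1 island at an end. In the Hdac2 list 1 inhibitor (Dkk2) and 4 receptors were in the top 10%, beside 13.9% of all genes with an Hdac2 island at an end. The difference between the roles was not tested.

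Dkk2, a Dickkopf protein that binds Lrp co-receptors, was the inhibitor with the strongest islands. Its Hdac1 island was 4.0 kb (chr3:132083601-132087600, 1.46e-76, top 11.7%) and its Hdac2 island 4.8 kb (chr3:132084001-132088800, 1.73e-18, top 5.61%), so here Hdac2 was the wider. Inside the gene, islands of 2.0 kb and 1.4 kb overlapped, starting 16.1 kb past the listed start for Hdac1 (chr3:132101401-132103400) and a little farther for Hdac2 (chr3:132101601-132103000). Dkk1 and Dkk3 had Hdac1 alone, 1.8 kb (chr19:30548201-30550000, 2.2e-31) and 1.6 kb (chr7:112157601-112159200, 3.72e-32). Their nearest Hdac2 islands were 56.1 kb and 91.8 kb away.

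The Sfrp family and Frzb, which resemble the ligand-binding part of Frizzled, were split. Frzb had 5.4 kb (chr2:80443601-80449000, 6.48e-48) and 4.8 kb (chr2:80444601-80449400, 2.96e-07), the former the widest Hdac1 island among the inhibitors. Sfrp1 had 3.8 kb (chr8:23409401-23413200, 2.84e-34) and 1.4 kb (chr8:23410601-23412000, 2.52e-07), and Sfrp2 had 1.6 kb (chr3:83765801-83767400, 3.3e-36) and 1.2 kb (chr3:83765801-83767000, 3.2e-07). Merging islands within 1 kb widened Hdac1 at Sfrp2 to 3.4 kb. The Hdac2 islands of Frzb, Sfrp1 and Sfrp2 were in the weaker part of that list, top 62.6% to top 63.9%, and were gone when only the upper 50% of each list was kept, which left 2 of the 8 inhibitors with Hdac2. Sfrp5 had Hdac1 alone, 1.4 kb (chr19:42201201-42202600, 7.9e-30), although 53.1 kb outside it an Hdac1 island of 1.0 kb was listed at 0 (chr19:42255401-42256400) and overlapped an Hdac2 island of 1.4 kb (1.11e-33). Wif1, a ligand-binding inhibitor, had 3.6 kb (chr10:121031801-121035400, 1.44e-35) and 2.8 kb (chr10:121032401-121035200, 2.06e-10), and a second overlapping pair inside the gene, 39.4 kb past the start for Hdac1 (chr10:121073401-121075600) and 38.6 kb for Hdac2 (chr10:121072601-121076000).

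Beta-catenin itself stood high in both lists. At Ctnnb1 the Hdac1 island of 3.8 kb (chr9:120933001-120936800, 3.98e-153) was in the top 2.40% and the Hdac2 island of 3.0 kb (chr9:120931801-120934800, 3.78e-23) in the top 2.85%. Both covered a listed start, but the Hdac2 island began and ended upstream of the Hdac1 island, and they shared 1.8 kb.

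The nuclear partners that link beta-catenin to transcription also had both. Bcl9l had the widest pair of this role, 9.6 kb (chr9:44482201-44491800, 5.7e-203) and 7.8 kb (chr9:44482601-44490400, 1.57e-12), and a further pair inside the gene, where the Hdac2 island (chr9:44496601-44500600, 6.58e-20, top 4.51%) ranked above the one at the end (top 18.9%). Bcl9 had pairs at its end (Hdac1 chr3:97295801-97300000, Hdac2 chr3:97295401-97299400) and at its listed start inside the gene span (Hdac1 chr3:97226601-97228600, 1.58e-86, and Hdac2 chr3:97226201-97228400, 1.5e-12). An Hdac2 island of 5.4 kb inside Bcl9 (chr3:97245201-97250600, 9.29e-12) overlapped no Hdac1 island. Pygo1 had 2.8 kb (chr9:72924401-72927200, 1.28e-79) and 1.6 kb (chr9:72924601-72926200, 6.95e-09). Pygo2 had 2.2 kb (chr3:89429601-89431800, 1.36e-27) and 0.6 kb (chr3:89430201-89430800, 5.2e-09), at an end shared with Shc1.

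In the destruction complex, which holds beta-catenin down, 5 of 6 genes had Hdac1 at an end and 2 of 6 (33.3%) had Hdac2, beside 60.7% and 31.7% of all genes. Gsk3b, the kinase that phosphorylates beta-catenin, had an Hdac1 island of 6.0 kb (chr16:38087201-38093200, 1.12e-197, top 1.12%) and an Hdac2 island of 3.0 kb (chr16:38087801-38090800, 5.36e-10, top 34.7%). Csnk1a1, the priming kinase, had 6.2 kb (chr18:61554001-61560200, 2.62e-111) and 2.8 kb (chr18:61554601-61557400, 3.61e-06, top 76.3%). In both genes the Hdac2 island lay within the outline of the Hdac1 island.

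The scaffold genes Apc, Apc2 and Axin1 and the second kinase gene, Gsk3a, had no Hdac2 within 1 kb of an end or inside the gene. Their Hdac1 islands were 3.6 kb at Apc (chr18:34220201-34223800, 5.05e-54), 6.0 kb at Apc2 (chr10:80292001-80298000, 5.03e-74, also at an end of Rps15) and 5.0 kb at Gsk3a (chr7:25236401-25241400, 6.44e-48). Axin1 spans chr17:26131217-26195811, and its Hdac1 island of 2.6 kb (chr17:26137801-26140400, 8.02e-88, top 9.17%) lay wholly inside the gene, 6.58 kb from the first base, which is why it was not counted at an end. The nearest Hdac2 island was 3.74 kb from Apc2, 6.46 kb from Gsk3a, 8.01 kb from Apc and 30.6 kb from Axin1.

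The Dishevelled genes, whose proteins pass the signal from receptor to destruction complex, had Hdac1 and no Hdac2 at any listed start. At the starts the Hdac1 islands were 2.8 kb for Dvl1 (chr4:155845801-155848600, 5.35e-57), 2.4 kb for Dvl2 (chr11:70000001-70002400, 7.37e-78, also at an end of Phf23) and 2.8 kb for Dvl3 (chr16:20515601-20518400, 2.11e-101). All 3 promoters were CpG-rich, the class in which 55.8% of genes had Hdac2. The nearest Hdac2 islands to Dvl2 and Dvl3 were 17.2 kb and 41 kb away.

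The Hdac2 island counted at Dvl1, and that at Wls, which encodes the carrier that exports Wnt ligands, lay at the 3′ end and were narrow but high in rank. The Hdac2 island at Pygo2 was as narrow (0.6 kb) but ranked at top 44.1%. At Dvl1 an Hdac1 island of 0.8 kb (chr4:155859201-155860000) was listed at 0 and an Hdac2 island of 0.6 kb (chr4:155859201-155859800, 3.47e-47) had the same first base; both were also at an end of Tas1r3. At Wls islands of 0.6 kb with the same outline in both lists (chr3:159939201-159939800) had values of 1.46e-17 for Hdac1 and 1.17e-80 for Hdac2, the latter in the top 0.217% of its list. Islands of at most 0.8 kb in the top 1% were few, 13 for Hdac1, all 13 overlapping Hdac2, and 25 for Hdac2, 23 of them overlapping Hdac1. Whether they mark deacetylase binding was not tested. Without islands of 0.8 kb or less, 24 genes of the set had Hdac2 at an end, the genes lost being Dvl1, Pygo2 and Wls. The share of all genes was not recomputed without them. At its listed start Wls had Hdac1 alone, 3.2 kb wide (chr3:159838601-159841800, 3.04e-39).

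**Figure D3:**
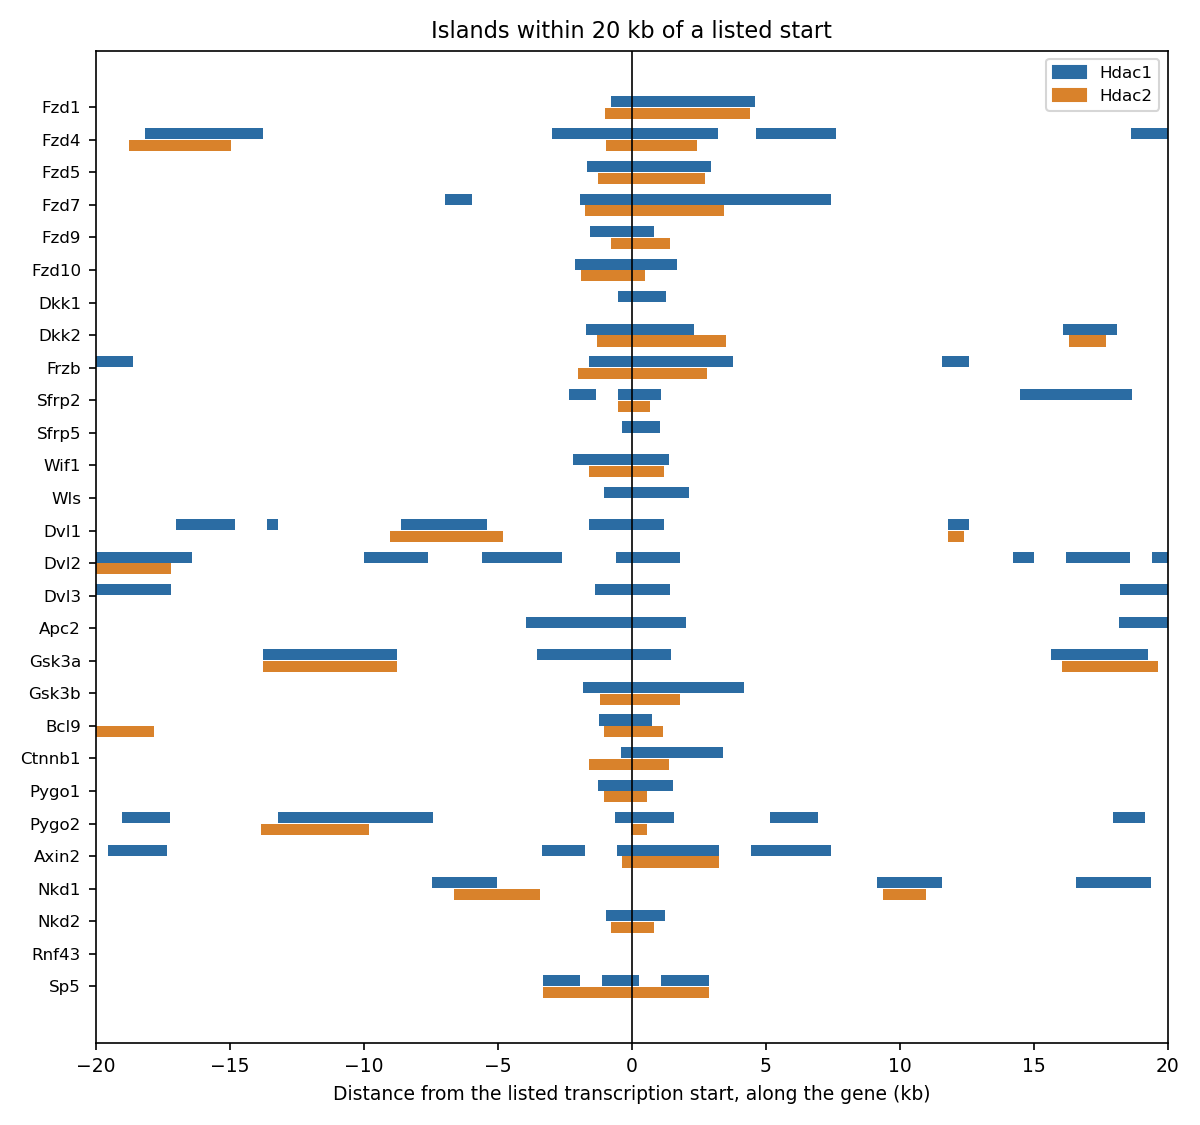
Islands of Hdac1 (blue) and Hdac2 (orange) within 20 kb of the listed transcription start of the 28 genes that have one (x axis, distance along the gene in kb from the nearest listed start, positive into the gene), with a row for each gene. Islands of both antibodies lie over the starts of Frizzled genes, Ctnnb1 and Axin2. The 3 Dishevelled genes have Hdac1 alone at the start, and Rnf43 has no island in the window.

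Feedback genes, which Wnt signalling switches on and whose products damp it or act downstream, differed in where their islands lay. Axin2, a widely used reporter of the pathway, had a weak Hdac1 island of 1.6 kb at its annotated end (chr11:108917001-108918600, 1.43e-17, top 48.3%). Its strong islands lay over the listed start farther in: 3.8 kb for Hdac1 (chr11:108919801-108923600, 1.64e-282, top 0.388%) and 3.6 kb for Hdac2 (chr11:108920001-108923600, 4.14e-27, top 1.92%). The Hdac2 island lay 2173 bp from the annotated end and so outside the 1 kb limit; no other gene without Hdac2 at an end had it closer. With 5 kb in place of 1 kb, Hdac2 was at an end of 29 genes, Axin2 and Apc2 being gained. The island gained at Apc2 was also at an end of Pcsk4. The share of all genes at 5 kb was not computed. Just inside the 1 kb limit were Wls for Hdac2 (535 bp) and Rnf43 for Hdac1 (862 bp), and Axin1 was the nearest gene outside it for Hdac1 (4790 bp). That Hdac1 island lay outside Axin1, at an end of Arhgdig and of Rgs11.

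Sp5 was the gene at which Hdac2 was broadest relative to Hdac1. A single Hdac2 island of 6.2 kb (chr2:70471601-70477800, 2.61e-13) covered the gene from end to end. In the same stretch Hdac1 formed separate islands of 1.4 kb (chr2:70471601-70473000), 1.4 kb (chr2:70473801-70475200, 3.95e-10) and 1.8 kb (chr2:70476001-70477800, 3.54e-27). When islands within 1 kb were merged, Hdac1 at Sp5 was also 6.2 kb wide, so the contrast in width rests on how islands were joined. The promoter with CTTTGAT lay under the middle Hdac1 island.

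Nkd1 and Nkd2, which bind Dishevelled, had both antibodies at an end. Nkd2 had 2.2 kb (chr13:73846401-73848600, 3.4e-53) and 1.6 kb (chr13:73846801-73848400, 2.58e-09). At Nkd1 the Hdac1 island of 2.4 kb (chr8:88520201-88522600, 5.87e-38) and the Hdac2 island of 3.2 kb (chr8:88521001-88524200, 3.74e-05) overlapped at the annotated end but not within 1 kb of the listed start, which lay inside the gene. A pair inside Nkd1, of 2.4 kb (chr8:88536801-88539200) and 1.6 kb (chr8:88537001-88538600), also overlapped.

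The membrane ubiquitin ligases Rnf43 and Znrf3, which remove Frizzled from the cell surface, were unlike each other. Znrf3 had an Hdac1 island at its end, 3.4 kb (chr11:5442201-5445600, 3.56e-67), with no Hdac2 there. Inside Znrf3 there were Hdac2 islands of 2.4 kb (chr11:5296601-5299000, 1.04e-06), 4.0 kb (chr11:5361401-5365400, 3.17e-07) and 2.8 kb (chr11:5413801-5416600, 1.01e-05), of which the middle one overlapped no Hdac1. Rnf43 had no island of either antibody inside the gene, and its nearest Hdac2 island was 191 kb away. The Hdac1 island counted there (chr11:87736401-87738200, 1.52e-32) lay past its 3′ end, at an end of Supt4a.

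Where both antibodies were present, the Hdac2 island was usually the narrower. The strongest Hdac2 island was narrower than the strongest Hdac1 island at 23 of the 27 genes (85.2%), equal at Fzd1 and wider at Sp5, Nkd1 and Dkk2, with a median width ratio of 0.75. Over the 6724 genes with both it was narrower at 66.8%, and the median ratio was 0.80. Hdac2 islands were not narrower in general: over the whole lists their median width was 2.8 kb, against 2.0 kb for Hdac1. The strongest islands overlapped at 26 of the 27 genes, Wls being the exception. Across the 27 genes the widths in the 2 lists had a Spearman rho of 0.68, against 0.46 across all 6724. This describes genes that share the same 2 libraries and local base composition.

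**Figure D4:**
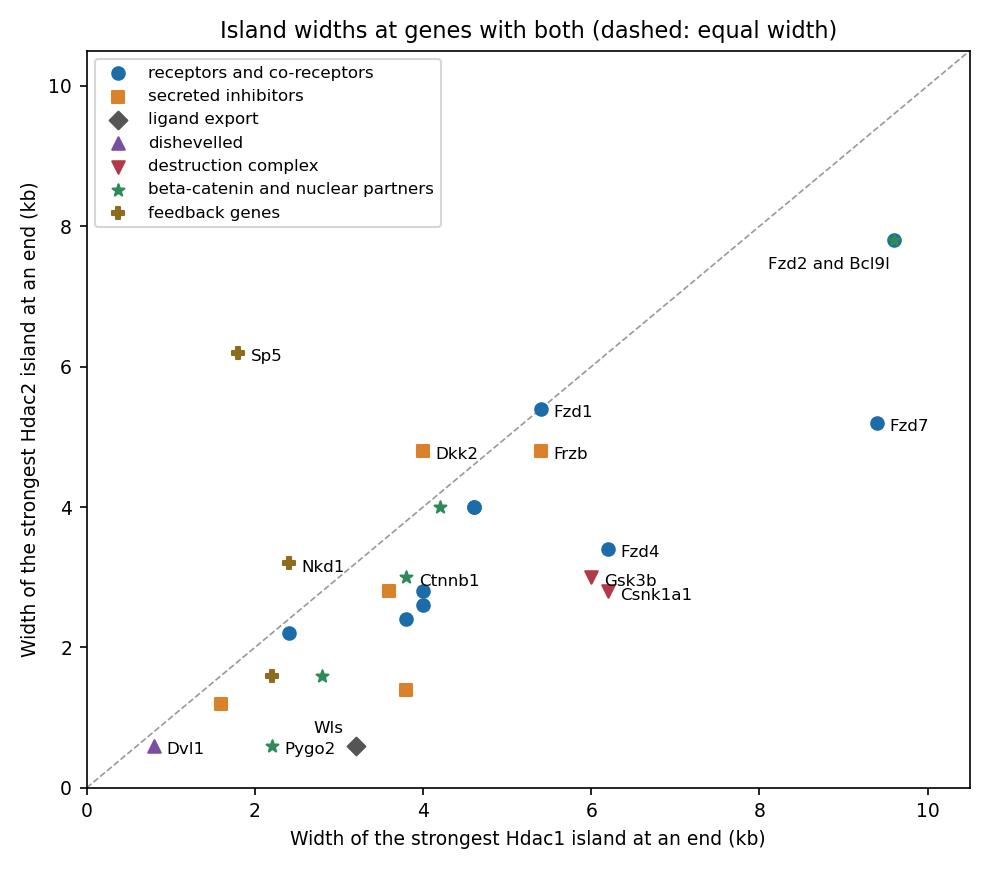
Width in kb of the strongest Hdac1 island (x axis) and the strongest Hdac2 island (y axis) at an end of each of the 27 genes with both, with symbols for role and a dashed line at equal width. Most points lie below the line; Sp5 (1.8 kb against 6.2 kb) lies farthest above it, and Fzd2 and Bcl9l coincide at 9.6 kb and 7.8 kb. At Wls the values compared lie at opposite ends of the gene.

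Every Hdac2 island at an end of these genes overlapped an Hdac1 island (27 of 27, 95% Wilson interval 87.5 to 100%), close to the 96.8% of all Hdac2 islands at gene ends. Of the 46 Hdac1 islands at their ends, 28 (60.9%, interval 46.5 to 73.6%) overlapped Hdac2, against 47.9% of all Hdac1 islands at gene ends. The interval covers counting error only and includes the value for all gene ends.

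An island at a gene end that reaches into the gene was also counted in the body, so the counts at the ends and in the body overlap by construction. Hdac1 lay in the body of 40 genes (97.6%), against 65.5% of all genes, Rnf43 being the exception, and Hdac2 in 28 (68.3%), against 38.4%. All 28 had both in the body, against 36.6% of all genes. Counting islands by their centre, 33 genes had Hdac1 in the body and 22 had Hdac2. The share of all genes was not recomputed on that count, so these numbers cannot be set beside it. Not at an end of these genes were 24 Hdac1 and 11 Hdac2 islands in their bodies. The median length of the genes was 29.1 kb, against 17.2 kb for all genes, although 15 of the 41 were at most 10 kb long. A longer gene has more room for an island, and whether length bears on these counts was not tested. Lrp6 and Nkd1 held the most Hdac1 islands in the body, 7 and 4, and Bcl9 and Znrf3 the most Hdac2 islands, 3 each.

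Within 100 kb, all 41 genes had an Hdac1 island, against 85.4% of all genes, and 40 had an Hdac2 island, against 85.5%, with Rnf43 the exception; 40 had both, against 77.1%. The number within 100 kb ran from 1 at Fzd8 to 18 at Apc2 for Hdac1, with a median of 7, and from 0 at Rnf43 to 9 at Dvl1 and Fzd3 for Hdac2, with a median of 3. The medians over all genes were 5 and 2. Of 245 Hdac1 islands outside these genes and not at their ends, 114 (46.5%) lay at an end of another protein-coding gene, as did 54 of 110 for Hdac2 (49.1%), so this count depends on the neighbours. In the whole lists 12151 of 30182 Hdac1 islands and 6010 of 20307 Hdac2 islands lay at a gene end. Fzd8 had no Hdac1 island within 100 kb but its own, and Fzd10 had 1 beside its own.

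Other lists of pathway genes also had islands at shares above those of all protein-coding genes (60.7% for Hdac1 and 31.7% for Hdac2). Hdac1 was at an end of 17 of 19 Wnt ligand genes, 4 of 4 Tcf and Lef genes, 7 of 7 R-spondin and Lgr genes and 41 of 45 further pathway genes. Hdac2 was at 10 of 19 (52.6%), 4 of 4, 4 of 7 (57.1%) and 27 of 45 (60.0%), beside 65.9% of the set. Tle3, a corepressor of Tcf factors, had 9.6 kb of Hdac1 (4.39e-212) and 6.8 kb of Hdac2 (2.79e-26). Lgr5, an R-spondin receptor and itself a Wnt target, had 4.2 kb (9.92e-122) and 3.4 kb (1.44e-22), and Notum, a secreted feedback inhibitor that removes the lipid from Wnt, had 3.0 kb (8.42e-93) and 3.2 kb (3.14e-22). The secreted inhibitors Dkk4 and Sostdc1 had neither. The shares of the set were not tested against those of these lists.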

How the data were processed

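In the deposited files each island has a position and a number that the authors' caller gave it, a p-value or q-value (which of them is not stated). The build was mm10 and SICER, bedtools 2.17, SAMtools 1.3.1, BWA 0.7.5a and FastQC were named, per the submitters' processing notes. Not given in the sources used here were the background library, the read depth and the version and settings of SICER. IgG controls were not analysed here. Libraries began from 500 pg of DNA with at least 12 cycles of amplification, per the labels' protocols. Island starts and widths are multiples of 200 bp, so edges are coarse. Positions are given 1-based.

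Genes came from RefSeq (GRCm38.p6). An island was at a gene end if at least 1 bp of it lay no more than 1 kb from the first or the last base of the gene. The strongest island of a gene is that with the smallest p- or q-value among those at its ends. Ranks are within a list, and tied islands all take the largest of their rank numbers, which is the weakest place among them. Listed starts and strand came from the promoter table, which holds 28 of the 41 genes; for the other 13, gene ends were not told apart. Members, roles and lists were chosen with earlier results of these data known. Named genes are the members, genes of the pathway lists and 8 progenitor genes; neighbours that share an island are also named. On simulated lists all 200 planted genes of 21883 were recovered for each library. The planted islands lay within the 1 kb window, so this checks the counting of overlaps and not the detection of binding. The work used bedtools 2.31.1, matplotlib 3.10.9, pandas 2.3.3, scipy 1.17.1, numpy 2.4.6 and Python 3.11.15.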

Additional observations from a re-analysis of the deposited data

How the results depend on the processing

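Counts of genes with islands at an end, in the body and within 100 kb were recomputed with the upper 50% of islands by value, equal list lengths, islands within 1 kb merged, other windows, centres or distances, and, chosen after seeing the data, without islands of 800 bp or less. Role counts were recomputed with the upper 50%, a 5 kb window, listed starts and without narrow islands. Counts by CpG class, of genes whole within an island, in the top 10% and of narrower Hdac2 islands were not recomputed. Of 110 recomputed values 97 stayed within 1.5 times the main count or within the interval of the main share. This rule is loose, since a fall from 27 to 20 genes with Hdac2 at an end stays within it. Merging islands or widening a window also cannot take a gene away. Genes with Hdac1 at an end numbered 39 to 41 and those with Hdac2 20 to 29 in all settings but that of listed starts. Shares of all genes were recomputed for listed starts only. In the other settings it is therefore not known how far the set stood from all genes. With listed starts only, for which 28 genes could be used, 26 had Hdac1 and 18 had Hdac2. By role this gave Hdac1 at 6 of 6 receptors, 3 of 3 destruction complex genes and 3 of 5 feedback genes, and Hdac2 at 6 of 6 receptors, 1 of 3 destruction complex genes, 0 of 3 Dishevelled genes and 0 of 1 ligand export genes; the drop in most follows from the fewer genes that could be used. The upper 50% of islands left Hdac2 at 2 of 8 secreted inhibitors and 1 of 6 destruction complex genes. Without islands of 800 bp or less Hdac2 was at 0 of 3 Dishevelled genes and 0 of 1 ligand export genes, since their Hdac2 islands are that narrow. Asking for 50% of both islands to be covered, 81.5% of the Hdac2 islands at these genes overlapped Hdac1. No paired analysis was possible because there is 1 library per antibody and no test, so no replicate could be left out either.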
